A study of Mus musculus with 2 samples.

Results

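The proteasome genes of the mouse were examined in genomic maps of SRCAP, the ATPase of a remodelling complex that places the histone variant H2A.Z into nucleosomes in exchange for H2A. Genes were chosen by name alone, as the protein-coding genes of GENCODE vM21 whose symbol is Psma, Psmb, Psmc, Psmd, Psme, Psmf or Psmg followed by a number. This rule found 50 of 21951 genes, made up of 19 genes of the core particle, 9 of the base, 8 of the lid, 6 activators or regulators, 7 assembly factors and Psmc3ip, a meiotic recombination factor that is no proteasome subunit. The cells were SYAT mESCs, a CGR8 embryonic stem cell line that carries YPet and an auxin-inducible degron (AID) on both alleles of Srcap, together with the OsTir1 receptor. CUT&RUN, in which an antibody directs a nuclease to cut and release nearby DNA, was done once with the GFP antibody ab290, raised against GFP, of which YPet is a derivative, and once with the SRCAP antibody ESL-103. Both libraries therefore came from the same tagged line, in which auxinole was kept in the routine medium and auxin (IAA) was the agent of degradation, and the labels do not say which of these the individual libraries received. For the GFP library the assay is known from its labels, since the study's methods name that antibody for CUT&Tag.

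The GFP list held 28718 peaks and the SRCAP list 28167, each called on 1 library. A gene was scored as having a promoter peak when the midpoint of a listed peak lay between 1000 bp upstream and 500 bp downstream of any of its annotated transcription start sites (TSS). The deposited score of each peak, a whole number of unstated meaning that began at 13 and had a median of 47 in both lists, was used to rank peaks within a list, as a percentile in which tied scores share their mean rank. With 1 library per antibody there was no replicate error and no test. Shares are given with 95% Wilson intervals, which cover counting error only, and beside the same share over all protein-coding genes. Read depth cannot be read from peak lists, and the lists hold no expression values, so the stem cell identity of the line was not checked here.

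The proteasome degrades proteins that carry ubiquitin chains. Its core particle is a barrel of outer alpha rings, which gate the entry, and inner beta rings, which hold the proteolytic sites. The regulatory particle sits on the alpha ring, with a base whose ATPases unfold the substrate and a lid that removes its ubiquitin. Activators can replace the regulatory particle, inducible beta subunits replace their constitutive counterparts in cells exposed to interferon, and dedicated chaperones assemble core and base. In most tissues the subunit genes are widely expressed and are induced together by the transcription factor Nfe2l1 when proteasome activity falls short.

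RefSeq promoters (GRCm38.p6), each from 250 bp upstream of a RefSeq start to 50 bp downstream of it, were matched to 42 of the 50 genes. The sequences shown first belong to the 3 matched genes whose promoter peaks ranked highest over both lists, and capitals mark exact matches to any of the 10 motifs listed further on. Psmd8, a lid subunit, is shown at chr7:29180624-29180923, minus strand. Psmd4, a ubiquitin receptor of the regulatory particle, is shown at chr3:95042565-95042864, minus strand. Psmg4, a chaperone of core assembly, is shown at chr13:34162714-34163013, plus strand. Psmd3, the gene with the highest rank of all, is named only.
Psmd8: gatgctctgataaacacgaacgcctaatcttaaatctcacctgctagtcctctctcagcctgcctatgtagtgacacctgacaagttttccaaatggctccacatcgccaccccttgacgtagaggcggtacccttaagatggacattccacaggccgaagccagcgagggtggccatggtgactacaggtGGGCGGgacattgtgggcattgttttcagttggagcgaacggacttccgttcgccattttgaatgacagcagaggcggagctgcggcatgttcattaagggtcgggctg
Psmd4: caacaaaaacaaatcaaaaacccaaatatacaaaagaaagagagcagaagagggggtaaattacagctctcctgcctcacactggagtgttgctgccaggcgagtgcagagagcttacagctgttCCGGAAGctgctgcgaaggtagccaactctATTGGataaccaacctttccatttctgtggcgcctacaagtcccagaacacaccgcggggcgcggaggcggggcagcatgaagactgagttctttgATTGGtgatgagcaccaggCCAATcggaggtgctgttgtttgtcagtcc
Psmg4: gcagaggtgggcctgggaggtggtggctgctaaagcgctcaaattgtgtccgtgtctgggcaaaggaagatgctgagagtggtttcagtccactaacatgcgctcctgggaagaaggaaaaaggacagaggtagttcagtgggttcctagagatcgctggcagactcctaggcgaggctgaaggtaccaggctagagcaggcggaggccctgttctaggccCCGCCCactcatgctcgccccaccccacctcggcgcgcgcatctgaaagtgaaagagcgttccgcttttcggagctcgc

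For contrast, 1 gene without a promoter peak in either list is shown for each role. They are Psmb4, a beta ring subunit (chr3:94886909-94887208, minus strand), Psmc1, an ATPase of the base (chr12:100109952-100110251, plus strand), Psmd12, a lid subunit (chr11:107479278-107479577, plus strand), Psme2b, named after the activator Psme2 (chr11:48946361-48946660, minus strand), and Psmd9, a chaperone of base assembly (chr5:123227940-123228239, plus strand).
Psmb4: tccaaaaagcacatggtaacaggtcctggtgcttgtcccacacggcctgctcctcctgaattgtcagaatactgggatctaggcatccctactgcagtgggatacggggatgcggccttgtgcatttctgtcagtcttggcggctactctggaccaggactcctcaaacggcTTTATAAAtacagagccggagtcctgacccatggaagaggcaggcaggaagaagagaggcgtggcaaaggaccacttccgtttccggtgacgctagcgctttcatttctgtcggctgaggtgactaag
Psmc1: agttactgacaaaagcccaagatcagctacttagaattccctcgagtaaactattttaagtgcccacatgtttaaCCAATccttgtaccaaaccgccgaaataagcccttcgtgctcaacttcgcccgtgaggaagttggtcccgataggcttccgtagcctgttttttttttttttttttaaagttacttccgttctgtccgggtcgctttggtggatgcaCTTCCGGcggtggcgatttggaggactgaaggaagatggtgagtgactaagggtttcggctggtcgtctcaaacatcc
Psmd12: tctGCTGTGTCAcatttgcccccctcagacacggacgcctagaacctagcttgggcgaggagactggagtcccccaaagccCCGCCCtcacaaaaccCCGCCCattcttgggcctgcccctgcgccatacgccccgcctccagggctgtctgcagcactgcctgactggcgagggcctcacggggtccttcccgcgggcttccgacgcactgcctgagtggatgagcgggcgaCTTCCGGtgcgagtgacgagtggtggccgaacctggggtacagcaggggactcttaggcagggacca
Psme2b: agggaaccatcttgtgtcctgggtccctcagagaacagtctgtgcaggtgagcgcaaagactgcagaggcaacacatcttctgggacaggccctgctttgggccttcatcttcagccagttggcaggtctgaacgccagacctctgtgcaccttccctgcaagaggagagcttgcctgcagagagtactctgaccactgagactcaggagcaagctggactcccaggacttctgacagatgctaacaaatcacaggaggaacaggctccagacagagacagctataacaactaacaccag
Psmd9: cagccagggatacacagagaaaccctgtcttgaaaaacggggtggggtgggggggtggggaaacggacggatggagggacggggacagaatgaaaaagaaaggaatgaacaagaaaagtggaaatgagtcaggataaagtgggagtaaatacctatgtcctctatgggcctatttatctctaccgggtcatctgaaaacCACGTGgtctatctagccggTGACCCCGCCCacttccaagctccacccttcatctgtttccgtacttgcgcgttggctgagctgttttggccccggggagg
Some motifs were common to both sets. Psmd12 and Psmd9 hold the GC box that is also found in Psmd8 and Psmg4, Psmc1 and Psmd12 hold the ETS core that is found in Psmd4. Psmb4 holds only a TATA box, which is absent from the first 3, and Psme2b holds none of the motifs.

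A promoter peak was listed for 37 of the 50 proteasome genes in at least 1 list (74%, 60.4 to 84.1) and for 29 in both (58%, 44.2 to 70.6), and 13 genes had none (26%, 15.9 to 39.6). Each antibody gave 33 genes, or 66% (52.2 to 77.6), and over all protein-coding genes the share was 35.0% with GFP, 35.6% with SRCAP and 27.0% in both. Out of the 21951 genes, 7683 were called in the GFP list, 7825 in the SRCAP list and 5931 in both. These counts place the share called in at least 1 list above that of either list and below the interval of the 37 genes. They place the share called in neither list above the interval of the 13 genes. By role, the lid had promoter peaks at 6 of 8 genes in each list (75%, 40.9 to 92.9), the core at 13 and 14 of 19 (68.4%, 46.0 to 84.6, and 73.7%, 51.2 to 88.2), the base at 6 and 5 of 9 (66.7%, 35.4 to 87.9, and 55.6%, 26.7 to 81.1), and the activators at 4 and 5 of 6 (66.7%, 30.0 to 90.3, and 83.3%, 43.6 to 97.0), GFP list first. Assembly factors had 3 of 7 in each list (42.9%, 15.8 to 75.0), the lowest share of the 5 roles in this count. The intervals of all 5 roles overlap each other, and the share over all genes lies within those of the assembly factors in both lists, of the base with SRCAP and of the activators with GFP. The core, base and lid without the inducible and tissue-restricted core subunits gave 22 of 31 genes in each list (71.0%, 53.4 to 83.9). Sem1, a lid component, and Adrm1, a ubiquitin receptor, have symbols that the naming rule does not cover. They are outside these counts, and neither had a promoter peak.

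When weaker peaks, those with a score under the median of their list, were set aside, there remained 18 proteasome genes with GFP (36%, 24.1 to 49.9) and 24 with SRCAP (48%, 34.8 to 61.5), where all protein-coding genes gave 22.2% and 23.5%. The interval of the GFP list then lies just above its background and that of the SRCAP list further above it. On this stricter count the lid kept 4 and 6 of 8 genes, the core 6 and 9 of 19, the base 2 and 4 of 9, the activators 2 and 2 of 6, and the assembly factors 3 and 3 of 7, so that these no longer had the lowest share. With GFP they were at 42.9% (15.8 to 75.0), against 50% of the lid, 31.6% of the core, 22.2% of the base and 33.3% of the activators. With SRCAP the assembly factors were also at 42.9%, below the lid (75%), the core (47.4%) and the base (44.4%) and above the activators (33.3%). The intervals of all roles overlap each other in both lists.

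**Figure D1:**
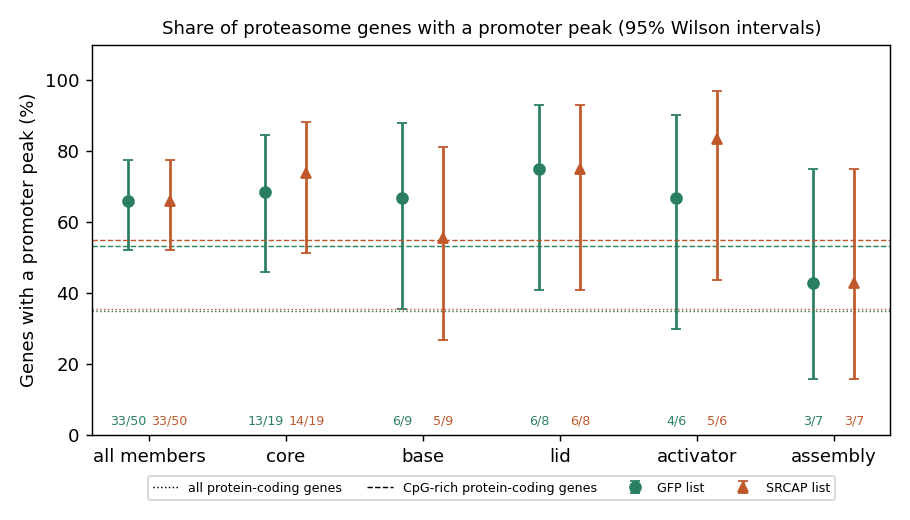
Share of genes with a promoter peak (y axis, %) for all 50 proteasome genes and for each role, in the GFP list (circles) and the SRCAP list (triangles), with 95% Wilson intervals and the counts printed at the bottom. Dotted lines mark all protein-coding genes (35.0% and 35.6%) and dashed lines those with a CpG-rich promoter (53.3% and 54.9%). The intervals of the assembly factors in both lists, of the base with SRCAP and of the activators with GFP include the dotted lines, and the others start at 35.4% or above.

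All 7 constitutive alpha subunits had a promoter peak with SRCAP, and 5 of 7 with GFP. Psma2 carried the strongest SRCAP signal of all 50 genes, with a score of 171 (96.3rd percentile) at chr13:14613035-14613379, and a score of 64 (69.5th percentile) in the GFP list at chr13:14613068-14613311. Its SRCAP peak was centred at -33 bp from the TSS and its GFP peak at -50 bp. Psma5 followed the same order, with a GFP score of 36 and a SRCAP score of 114, while Psma3 was alike in both, at 76 and 71. Psma4, at 45 and 39, and Psma1, at 37 and 29, lay below the median of both lists. A second, weaker GFP peak, with a score of 26, was centred at -496 bp of Psma1 and was not shared.

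The alpha genes Psma6 and Psma7 had a promoter peak in the SRCAP list alone. At Psma6 a peak of 278 bp with a score of 38 was centred at -35 bp of an internal TSS (chr12:55398601-55398878), and the nearest GFP peak was centred 1831 bp downstream of a TSS. At Psma7 a peak of 241 bp with a score of 40 lay at -900 bp (chr2:180043213-180043453), the position closest to the edge of the window among all members, and 824 bp from a TSS of the neighbour Ss18l1. The nearest GFP peak was at -8592 bp. Psma8, the testis-specific alpha subunit, had weak peaks in both lists, with a GFP score of 23 and a SRCAP score of 40, centred at 143 and 74 bp.

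In the constitutive beta ring, 5 of 7 genes had a promoter peak with GFP and 4 of 7 with SRCAP. Psmb5, the chymotrypsin-like catalytic subunit, had the highest GFP score of all 50 genes, 188 (97.2nd percentile), against 47 (50.5th percentile) in the SRCAP list. Psmb6, the caspase-like subunit, ran the other way, scoring 37 with GFP and 63 with SRCAP. Psmb7, the trypsin-like subunit, had no promoter peak. Of the structural beta subunits, Psmb1 had scores of 58 and 102 and Psmb3 had 52 and 77, GFP list first, and Psmb4 had none. Psmb3 also had an unshared GFP peak with a score of 45, at -824 bp of an internal TSS.

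Psmb2 stood out for the split between antibodies. A GFP peak of 341 bp with a score of 100 (87.0th percentile) was centred at -262 bp (chr4:126677198-126677538), and the nearest SRCAP peak was at -50257 bp. No other gene with a promoter peak in 1 list had a score as high. Near Psmb4 the SRCAP list held a peak with a score of 49 at -1916 bp (chr3:94888780-94888973), and near Psmb7 another with a score of 70 at -2051 bp (chr2:38646053-38646223), together with a peak of score 88 in an intron (chr2:38616149-38616407). The GFP list held a different intronic peak of Psmb7, with a score of 32 (chr2:38592214-38592455).

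Among the interferon-inducible beta subunits, Psmb9 and Psmb10 had promoter peaks in both lists and Psmb8 in neither. Psmb9 scored 45 and 47. Psmb10 had the widest gap in rank between antibodies, with a GFP score of 21 (4.31st percentile) and a SRCAP score of 109 (88.5th percentile). Both of its peaks were centred by an internal TSS. The peaks nearest to Psmb8, at -10302 and -10320 bp, were the promoter peaks of Psmb9. Psmb11, the thymic beta subunit, had none either, and the peaks within 5000 bp of it, at -3255 bp with GFP and -3167 bp with SRCAP, were those of the Psmb5 promoter. Psmb10 and the lid gene Psmd7 lie on chromosome 8, where 49.2% of the coding genes were called with GFP and 51.3% with SRCAP. With genes on that chromosome left out, the count of proteasome genes was 31 of 48 in each list, and the share over all genes in that setting is not given.

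The 6 ATPases of the base form the ring that unfolds substrates, and they fell into 3 with a promoter peak in both lists and 3 with none. Psmc4 was highest, with a GFP score of 68 (chr7:28050019-28050552) and a SRCAP score of 121 (chr7:28050018-28050475), centred at -185 and -146 bp. Psmc6 had 46 and 89, with a second GFP peak of score 34 at 146 bp that the single SRCAP peak also overlapped. Psmc5 had 29 and 45, in peaks of 574 and 624 bp whose midpoints lay nearer to Ftsj3 than to Psmc5. Psmc1, Psmc2 and Psmc3 were without. For Psmc2 intronic peaks were listed nearby, scoring 31 with GFP at 1218 bp (chr5:21786315-21786687), 78 at -1818 bp of another TSS (chr5:21792121-21792449), and 53 with SRCAP at -1737 bp (chr5:21792245-21792486). For Psmc1 and Psmc3 the nearest peaks lay more than 5000 bp away, at 12005 and 17382 bp in the GFP list.

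The non-ATPase base subunits are the scaffolds Psmd1 and Psmd2 and the ubiquitin receptor Psmd4. Psmd4 scored 124 with GFP (chr3:95042516-95042921, -105 bp) and 94 with SRCAP (chr3:95042516-95042707, 2 bp). Psmd2 had a promoter peak in both lists, but not the same one. Its GFP peak had a score of 22 at 321 bp, inside the gene, and its SRCAP peak 89 at -35 bp, and these did not overlap. Psmd1 was listed with GFP only, with a score of 26 (12.3rd percentile) at 63 bp (chr1:86064282-86064618), and both lists held a stronger upstream peak, with scores of 94 and 82, at -4677 and -4793 bp.

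The lid held the highest gene overall. Psmd3 scored 129 with GFP (92.8th percentile, chr11:98682058-98682566) and 148 with SRCAP (94.6th percentile, chr11:98682240-98682550), centred at -242 and -159 bp. Psmd8 scored 128 (chr7:29180568-29181062, -114 bp) and 99 (chr7:29180310-29180911, -59 bp), so its printed promoter lies inside both peaks for most of its length. Psmd11 scored 91 (chr11:80428271-80428618) and 88 (chr11:80428229-80428654) with almost the same centre, -170 and -173 bp. These 3 structural subunits were above the 80th percentile of both lists. Psmd7, the partner of the deubiquitinase, scored 63 and 94, and Psmd13 34 and 70.

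The remaining lid genes were uneven. Psmd14, the deubiquitinase itself, had a GFP peak alone, with a score of 32 at -277 bp (chr2:61711325-61711508), and the nearest SRCAP peak was at -217035 bp. An intronic GFP peak of Psmd14 with a score of 58 at 1093 bp (chr2:61712776-61712992) fell outside the window. Psmd6 had a SRCAP peak alone, with a score of 47 at 71 bp (chr14:14120663-14121061), and its nearest GFP peak was centred at 80157 bp. Psmd12 had no promoter peak, and the nearest peaks lay at -6093 and -6052 bp.

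Of the activators, Psme2 ranked highest, with a GFP score of 113 (chr14:55591054-55591766, -297 bp) and a SRCAP score of 72 (chr14:55591497-55591854, -563 bp). The SRCAP peak lay 32 bp from a TSS of the divergent gene Rnf31, and a second SRCAP peak of Psme2, with a score of 28, was centred at 44 bp. Psme1, its partner in the heteromeric activator, scored 43 and 34. Psme3, the nuclear activator, scored 56 and 70, and Psme4, an activator linked to histone degradation, 33 and 31. Psme4 also held an intronic peak that scored higher than its promoter, scoring 76 with GFP (chr11:30785426-30785976) and 159 with SRCAP (chr11:30785468-30785969). Psmf1, a proteasome inhibitor in vitro, had only a SRCAP peak, with a score of 18 (4.14th percentile) at -27 bp of an internal TSS (chr2:151741213-151741461). Psme2b had none, and its nearest GFP peak lay at -5481 bp.

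The assembly factors had a promoter peak at 2 of 3 base chaperones and 1 of 4 core chaperones, in both lists. Of the base chaperones, Psmd5 scored 59 and 97 by an internal TSS and Psmd10 scored 47 and 67, GFP list first, and Psmd9 had no promoter peak. Psmd10 is the only one of the 50 genes on chromosome X, where 13.6% of the coding genes were called with GFP and 9.49% with SRCAP. Psmd9 had an intronic peak at 2301 bp with a GFP score of 75 (chr5:123171459-123171969) and a SRCAP score of 103 at 2317 bp (chr5:123171488-123171971). These lay nearer to a TSS of Hpd, at 1197 and 1181 bp, and far upstream of the Psmd9 promoter shown above. Peaks downstream of Psmd9 lay 23 bp from a TSS of Wdr66. Of the core chaperones, Psmg4 alone had promoter peaks, with a GFP score of 118 (chr13:34162616-34163215, -48 bp) and a SRCAP score of 74 (chr13:34162643-34163132, -76 bp). Psmg1, Psmg2 and Psmg3 had none, and Psmg1 held a peak in a coding exon with scores of 46 (chr16:95983762-95984085) and 40 (chr16:95983809-95984037).

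Psmc3ip, which the naming rule included though it encodes no subunit, had a GFP peak with a score of 85 at -133 bp (chr11:101095375-101095762) and no promoter peak in the SRCAP list. Peaks downstream of it, with scores of 105 and 31, lay 141 and 227 bp from a TSS of Mlx.

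**Figure D2:**
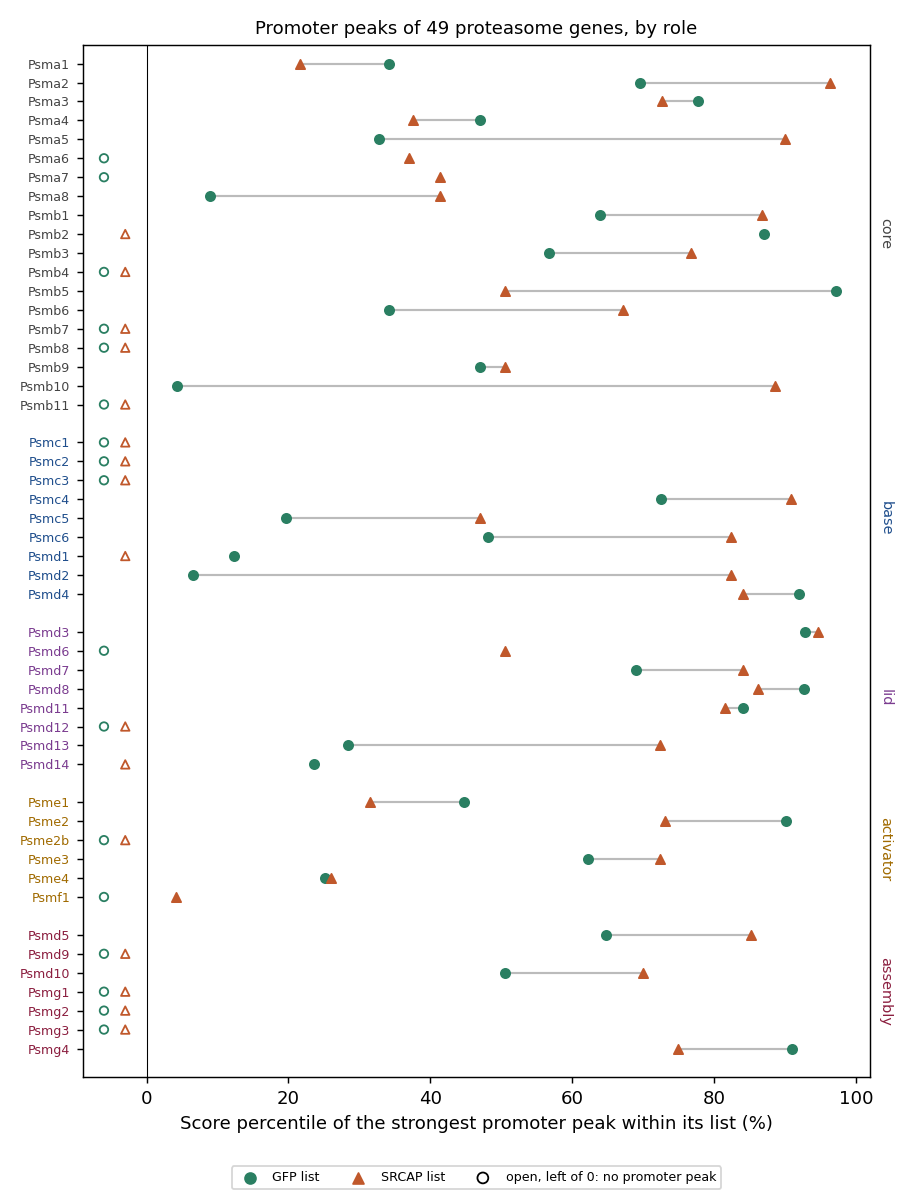
Score percentile of the strongest promoter peak of each gene within its list (x axis, %), for the 49 genes with a proteasome role, with circles for the GFP list, triangles for the SRCAP list and a line joining the pair. Open symbols left of 0 mark genes without a promoter peak. Psmd3 has the highest pair, at 92.8 and 94.6, and Psmb10 the widest, at 4.31 and 88.5.

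Within each list the proteasome promoters were not the strongest. The median score of the strongest promoter peak per gene was 52 with GFP (33 genes, 21 to 188) and 71 with SRCAP (33 genes, 18 to 171), against 57 and 60 over all protein-coding genes with a promoter peak. Their median percentile was 56.7 with GFP and 72.6 with SRCAP, against 63.0 and 64.5 over all such genes. The median rank of the proteasome genes thus lay below that of all promoters with peaks for the GFP antibody and above it for the SRCAP antibody, without a replicate of either. Of the 29 genes in both lists, 19 had the higher percentile with SRCAP (65.5%, 47.3 to 80.1) and 10 with GFP, and over all 5931 such genes the share higher with SRCAP was 50.1%, which the interval includes. Across those 29 genes the scores of the lists had a Spearman rho of 0.381, and across the 5931 protein-coding genes with a promoter peak in both lists 0.563, where the points of each comparison share the same pair of libraries and some share a peak.

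**Figure D3:**
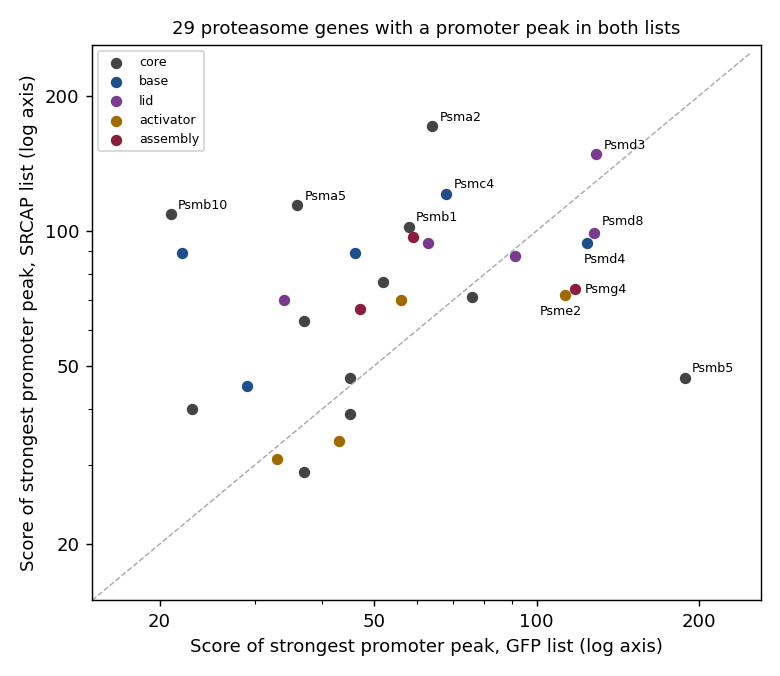
Score of the strongest promoter peak with GFP (x axis, log scale) against that with SRCAP (y axis, log scale) for the 29 genes with a promoter peak in both, coloured by role, with a dashed line of equal score. Psmb5 (188 and 47) and Psmb10 (21 and 109) are the farthest from it on either side.

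The peaks lay mostly near the start sites. The 37 GFP peaks at proteasome promoters had a median position of -114 bp from the nearest TSS of the gene (quartiles -258 and 0 bp) and the 35 SRCAP peaks of -74 bp (quartiles -157 and -24 bp), where negative means upstream. Over all protein-coding genes the medians were -128 and -92 bp. In the GFP list 25 of 37 peaks (67.6%, 51.5 to 80.4) and in the SRCAP list 28 of 35 (80%, 64.1 to 90.0) were centred within 200 bp of a TSS, against 56.0% and 65.7% of all promoter peaks. The interval of the GFP list includes its background value, and that of the SRCAP list starts just below its own. The proteasome genes had a median of 5 distinct TSSs and all genes 3, and distances to the nearest TSS were not adjusted for that. Just inside the edges of the window lay Psma7 at -900 bp, Psmb3 at -824 bp and Psmd13 at 323 bp, and just outside them lay peaks of Psmd14 at 1093 bp, Psmc2 at 1218 bp and Psme3 at -1310 and -1324 bp.

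Most of these peaks were common to both antibodies. An overlap of at least 1 bp with the other list was found for 29 of 37 GFP peaks (78.4%, 62.8 to 88.6) and 28 of 35 SRCAP peaks (80%, 64.1 to 90.0), against 68.8% and 68.5% of all promoter peaks, shares that both intervals include. The shared GFP peaks had a median score of 52 and the 8 others of 33, and the shared SRCAP peaks had 73 and the 7 others 38. In 27 of the 29 genes with peaks in both lists the strongest peaks overlapped each other, and the exceptions were Psmd2 and Psmd13. Peak widths were 184 to 713 bp with GFP (median 337) and 165 to 624 bp with SRCAP (median 265), close to the medians of 338 and 300 bp over all promoter peaks.

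**Figure D4:**
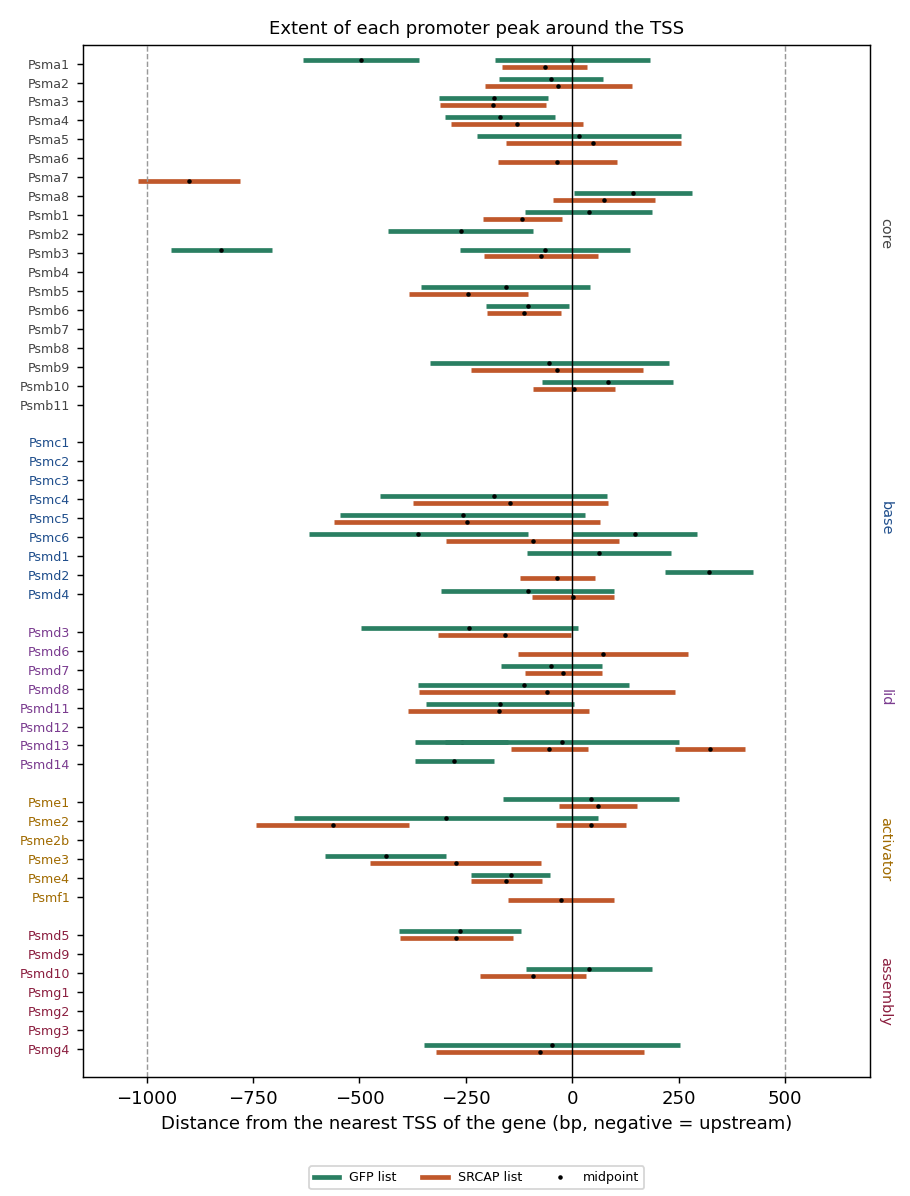
Extent of every promoter peak (bars, green for the GFP list and orange for the SRCAP list) and its midpoint (dots) against the distance from the nearest TSS of the gene (x axis, bp, negative upstream), with dashed lines at the window edges of -1000 and 500 bp. The midpoints centre on -114 bp with GFP and -74 bp with SRCAP, and rows without bars are genes with no promoter peak.

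Several proteasome promoters are shared with a gene on the opposite strand, and a peak there cannot be given to 1 gene. A TSS of a protein-coding gene on the other strand lay within 1000 bp for 13 of the 50 genes, of which 10 had a promoter peak in each list (76.9%, 49.7 to 91.8) and 9 in both (69.2%, 42.4 to 87.3). All protein-coding genes with such a neighbour gave 60.7% for GFP, 61.1% for SRCAP and 50.9% for both, which these intervals include. Of the other 37 genes 23 had a promoter peak in each list (62.2%, 46.1 to 75.9) and 20 in both (54.1%, 38.4 to 69.0), against 31.4%, 32.1% and 23.7% of all genes without such a neighbour. The pairs with a peak in both lists were Psma2 with Mrpl32 (TSS at -75 bp), Psma4 with AY074887 (-106 bp), Psmb1 with Tbp (-137 bp), Psmb9 with Tap1 (30 bp), Psmc5 with Ftsj3 (-75 bp), Psmd5 with Cutal (450 bp), Psmd10 with Atg4a (-179 bp), Psmd13 with Sirt3 (-99 bp) and Psme2 with Rnf31 (-595 bp). Psmd1 with Htr2b (-145 bp) had a peak with GFP and Psma7 with Ss18l1 (-76 bp) with SRCAP, and Psmc2 with Dnajc2 (-32 bp) and Psmg2 with Cep76 (-263 bp) had none. At Psmd1 and Psmd5, which the counts include, the peaks sat at another TSS of the gene than the one beside the neighbour. The Psmd5 peaks lay 3170 and 3161 bp from a TSS of Cutal. No TSS of another gene lay nearer than 18587 bp to the Psmd1 peak. Genes with such a neighbour were thus found with and without a peak. The midpoint was nearer to a TSS of another gene than to that of the proteasome gene for 3 of 37 GFP peaks and 7 of 35 SRCAP peaks, among them the strongest SRCAP peak of Psmb1, at 19 bp from Tbp. Psma5, Psmc3 and Psmd3 have such a neighbour among non-coding transcripts.

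Base composition and the number of start sites both move with promoter peaks over all genes. Of the 42 RefSeq promoters, 29 were CpG-rich (69.0%, 54.0 to 80.9), meaning a GC content of at least 50% and an observed over expected CpG ratio of at least 0.6, against 50.0% of 16521 protein-coding promoters. Their median CpG ratio was 0.749, against 0.631 over all. In a longer window, from 500 bp upstream to 100 bp downstream of the start, 24 of the 42 were CpG-rich, against 44.0% of all promoters. The excess was thus smaller there, and the counts that follow use the shorter window. Among CpG-rich promoters a peak was listed for 21 of 29 proteasome genes with GFP (72.4%, 54.3 to 85.3), 22 with SRCAP (75.9%, 57.9 to 87.8) and 18 with both (62.1%, 44.0 to 77.3), against 53.3%, 54.9% and 42.6% of all such genes. Each of these intervals starts just above its background. The 13 promoters that were not CpG-rich had a peak in both lists at 7 genes (53.8%, 29.1 to 76.8), and no other of them had one in either list, where all such genes gave 20.2%, 19.9% and 14.9%. Psmd4 was among them, with a CpG ratio of 0.508, and Psmb10, with 0.192, and the lowest ratio, 0.0904, was that of Psme2b.

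A gene with more annotated start sites has more windows in which a peak can fall. The proteasome genes had a median of 5 distinct TSSs and all protein-coding genes 3, and the 13 genes without a peak had a median of 3. Among the 27 genes with at least 5 TSSs, 20 had a promoter peak with GFP (74.1%, 55.3 to 86.8), 21 with SRCAP (77.8%, 59.2 to 89.4) and 18 in both (66.7%, 47.8 to 81.4), against 53.6%, 53.9% and 42.3% of all genes of that kind. With both conditions, a CpG-rich promoter and at least 5 TSSs, 15 genes remained, of which 12, 13 and 10 had a peak (80%, 54.8 to 93.0, then 86.7%, 62.1 to 96.3, and 66.7%, 41.7 to 84.8). All such protein-coding genes gave 59.2%, 60.0% and 47.5%, so the intervals of the GFP list and of both lists then include the background and that of the SRCAP list starts just above it. What part composition, start sites or expression have in the counts was not tested.

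The same promoters were searched on both strands for 10 motifs. The letters were CCAAT for NF-Y, GGGCGG for the SP/KLF family (the GC box), CCGGAAG for ETS factors, GCATGCGC for NRF1, TGACNNNGC for the antioxidant response element (ARE) that Nfe2l1 and Nfe2l2 bind, ATGGCGGC for YY1, CACGTG for E-boxes, TGACGTCA for the cAMP response element (CRE), TATAAA for the TATA box and ACTACAATT for ZNF143. Matches of different motifs may overlap, as the ARE and the GC box do in Psmd9. The ETS core was found in 15 of 42 proteasome promoters (35.7%, 23.0 to 50.8), against 12.6% of all promoters and 20.1% of CpG-rich ones. It was found at 7 genes with a peak in both lists, among them Psmd4, Psmd11 and Psmd2, and at 5 with none, namely Psmc1, Psmc2, Psmd12, Psmg1 and Psmg3. Of all 50 proteasome genes, 29 had a peak in both lists and 13 had none. The 15 with the ETS core thus did not have a peak in both lists more often than the 50 as a whole. Over all protein-coding promoters, genes with the ETS core had a promoter peak in 56.8% with GFP and 57.1% with SRCAP, and genes without it in 33.9% and 34.6%.

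For each of the other 9 motifs the interval included the share over all promoters. The GC box was found in 23 (54.8%, 39.9 to 68.8, against 49.6% of all and 77.4% of CpG-rich promoters), of which 17 had a peak in both lists and 2 in none. Over all promoters, 49.7% and 51.0% of genes with the GC box had a peak, GFP list first, and 24.0% of those without it in either list. CCAAT was found in 14 (33.3%, 21.0 to 48.4, against 38.1%), and the ARE in 6 (14.3%, 6.72 to 27.8, against 13.3%), namely Psmb5, Psmb6, Psmc6, Psmd9, Psmd12 and Psme4. Of those 6 genes, 4 had a peak in both lists and 2 had none, while over all promoters genes with the ARE had a peak in 40.1% and 41.4% and genes without it in 36.3% and 36.8%. The TATA box was found in 4 (9.52%, 3.77 to 22.1, against 12.6%), namely Psmb4, Psmb8, Psmd1 and Psmd6, none of which had a peak in both lists. Genes with a TATA box had a peak less often over all promoters too, in 17.2% and 17.5% against 39.6% and 40.3% without it. E-boxes were found in 4 (against 8.26%), NRF1 in 3 (against 3.84%) and YY1 in 2 (against 3.42%). The CRE and the ZNF143 core were found in none, and over all promoters in 2.44% and 0.563%.

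**Figure D5:**
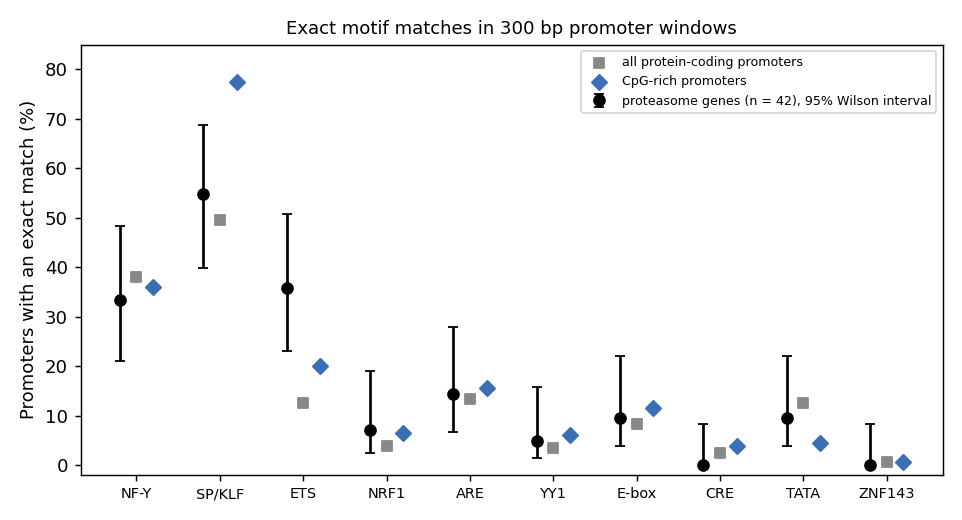
Share of 300 bp promoters with an exact match (y axis, %) to each motif (x axis), for the 42 proteasome promoters (black circles, 95% Wilson intervals), all protein-coding promoters (grey squares) and CpG-rich ones (blue diamonds). The ETS share of 35.7% lies above both references, 12.6% and 20.1%, and the GC box share of 54.8% lies below the 77.4% of CpG-rich promoters.

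Peaks also lay in or near the genes outside these windows. Within the gene or 5000 bp of it, the GFP list held 30 such peaks at 23 of the 50 genes and the SRCAP list 24 at 20 genes, counted once per gene. These are 46% (33.0 to 59.6) and 40% (27.6 to 53.8) of the genes, near the 40.0% and 39.0% of all protein-coding genes with such a peak. In the GFP list 14 were downstream, 10 intronic, 5 upstream and 1 in a coding exon, and in the SRCAP list 9, 7, 7 and 1. Some downstream peaks lay at the start of the next gene, as at Psme1 and Psme2, which share a peak 4 bp from a TSS of Emc9 (scores of 80 and 47), and at Psma5, whose downstream peak lies 163 bp from Sort1 (71 and 53). Psmd7 had a downstream peak with scores of 69 and 113 that lay far from any TSS, at 11526 and 11469 bp from its own. For the 13 genes with no promoter peak, the nearest peak in the GFP list ranged from Psmc2 at 1218 bp to Psmg2 at -35375 bp.

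Further genes of the ubiquitin and proteasome pathway were counted as 1 list of 24 symbols, of which 23 were found in the annotation. The genes encode ubiquitin, shuttle factors, proteasome-bound enzymes, transcriptional regulators and proteasome components outside the naming rule, such as Sem1. A promoter peak was listed for 11 of 23 with GFP (47.8%, 29.2 to 67.0), 10 with SRCAP (43.5%, 25.6 to 63.2) and 5 in both (21.7%, 9.66 to 41.9), and each interval includes the share over all protein-coding genes. The 5 in both were Vcp, the segregase that extracts substrates, with scores of 261 and 171, Nfe2l1, with 50 and 97, Nfe2l2, with 38 and 131, Akirin2, an import factor of nuclear proteasomes, with 59 and 89, and Txnl1, a proteasome-associated thioredoxin, with 101 and 82. All 5 had a score above the median of 47 in both lists except Nfe2l2 in the GFP list. Those with none included the ubiquitin receptor Adrm1, the lid component Sem1, the deubiquitinase Usp14, the protease Ddi2, the deglycosylase Ngly1 and the shuttle factor Ubqln2. Pomp, which matures the core, and the ubiquitin gene Ubb were listed with GFP alone, at scores of 19 and 28, and the ubiquitin gene Rps27a with SRCAP alone, at 35. Further genes of the list were also split, with Zfand5, Ubqln1 and Uba1, the ubiquitin-activating enzyme, in the GFP list (52, 34 and 27) and Rad23b, Uchl5 and Ube3c in the SRCAP list (95, 46 and 46). Rad23b is a shuttle factor, Uchl5 is a deubiquitinase and Ube3c a ubiquitin ligase of the proteasome.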

How the data were processed

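CUT&RUN libraries of SYAT mESCs, 1 with each antibody, were compared as deposited peak lists. The authors deposited the start, end and name of each peak with a score whose meaning is not stated. The submitters' processing notes name STAR, Picard and MACS2 and the builds mm10 and dm6. The study's reporting section on ChIP-seq, which also lists the SRCAP antibody of CUT&RUN, describes MACS2 calls against an input under a q-value limit, and its ChIP-seq methods leave out ENCODE blacklist regions. Whether this held for the CUT&RUN lists is not stated, and if no matched control was used, repeats and amplified regions could be listed as peaks. All coordinates lay within GRCm38.

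Promoter windows covered -1000 to 500 bp of any TSS of GENCODE vM21, and a peak was placed at its midpoint. A peak in the windows of several genes counted for each. Overlaps of 16138 GFP and 16248 SRCAP peaks with the other list were counted alike by bedtools 2.31.1. Promoter sequences came from RefSeq (GRCm38.p6), all 16521 equal to the genome at their coordinates, and a gene with several starts was represented by the start with the highest CpG ratio. For 39 of the 42 proteasome promoters the start lay within 50 bp of a GENCODE TSS. Matching of peaks to genes was tested on simulated data. Python 3.11.15, numpy 2.4.6, pandas 2.3.3, scipy 1.17.1 (Wilson intervals), pysam 0.24.0 and matplotlib 3.10.9 were used.

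The genes and lists were chosen with earlier results of these data known. Full values were given for the 8 genes highest by the sum of both score percentiles, for genes listed with 1 antibody and for genes without a promoter peak but with one within 5000 bp. Other genes were picked for contrast after their values were seen. Alternatives covered the score, window, overlap, transcripts, names and motif window. Some genes of the pathway list are not reported here by name.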

Additional observations from a re-analysis of the deposited data

How the results depend on the processing

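The lists come from single libraries and hold no read counts, so neither replicate error nor depth could be weighed. No paired analysis was possible because the antibodies were used on 1 library apiece. Of 85 alternative values that answer a comparison, 75 stayed within 1.5 times the reported count or within its spread, 10 moved and 0 reversed. Without peaks under the median score there were 18 proteasome genes with GFP and 16 with both, 6 core genes with GFP and 9 with SRCAP, 2 base genes with GFP and 2 activators with either antibody, since fewer peaks remain. In that setting 88.9% of 18 GFP peaks and 66.7% of 24 SRCAP peaks were shared, against 78.4% and 80% as reported. The share thus rose in the GFP list and fell in the SRCAP list, and that over all promoter peaks is not given. Where shared meant a reciprocal overlap of 50% or more, the share fell to 51.4% of the GFP list and 54.3% of the SRCAP list, a stricter condition by construction. Windows of 500 or 2500 bp either side, any overlap of 1 bp, coding transcripts alone and strict symbols gave 32 to 36 genes with GFP and 32 to 37 with SRCAP. For these settings the share over all protein-coding genes is not given, so the counts stand without a background. In a motif window of 500 bp upstream to 100 bp downstream, CCAAT was found at 22 of 42 genes, the ARE at 13 and the TATA box at 7, a longer search by construction. Over all promoters the shares in that window were 57.2%, 22.6% and 24.2%. Alternatives chosen after seeing the data were genes off chromosome 8 (31, 31 and 27 of 48 genes with GFP, SRCAP and both) and peaks nearest to the proteasome gene itself (31, 28 and 24 of 50). For these settings, too, the share over all protein-coding genes is not given, and it may be lower than the one reported.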
